A study of Mus musculus with 72 samples.

Results

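The genes described here are 8 transcripts that cells raise when the glucocorticoid receptor is active: Tsc22d3, Fkbp5, Klf9, Sgk1, Txnip, Cxcr4, Ddit4 and Zbtb16. They were chosen by name, with earlier results of these data known. Each is given by its brightest probe set (mean over all arrays) among those annotated to no other gene symbol. All 8 were on the array and passed the filter on dim probe sets, out of 12588 tested genes and 18193 genes with any such probe set. They hold 22 such probe sets, of which 16 passed the filter.

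The study measured whole-blood transcripts on 72 oligonucleotide arrays, 1 per blood sample, in female Balb/c mice that were 9 weeks old at the start. Control mice drank water with 0 µg/mL lead (Pb), low-dose mice 5 µg/mL and high-dose mice 50 µg/mL, given as lead acetate trihydrate for 2 weeks. Every mouse then drank Pb-free water for 2 more weeks. The question is which transcripts in blood change under Pb, and whether the change outlasts it. The 6 groups were 7 control, 15 low-dose and 15 high-dose arrays at the end of recovery or exposure, except that the high-dose recovery group held 13. All were bled under the jaw, and globin transcripts were depleted from the RNA of every sample. Of the 15 control mice, 7 were bled at the end of exposure, and the labels do not say whether the 7 recovery controls were those animals. Each dosed mouse of the recovery groups had also been bled at the end of exposure, but the arrays entered the test as independent samples, so the p-values rest on array-to-array spread alone.

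Glucocorticoids, chiefly corticosterone in mice, are released by the adrenal gland under stress and with the daily rhythm. The hormone frees the glucocorticoid receptor from Hsp90 and its co-chaperones, and the receptor moves to the nucleus and binds response elements made of inverted repeats, where it raises the transcription of some genes and lowers that of others. In blood the hormone also moves lymphocytes, monocytes and eosinophils between the circulation and the bone marrow or tissues, so both the transcripts per cell and the mix of cells can change.

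The promoter windows below are shown because they hold the letters of the receptor's binding element or of the E-box, the element of clock transcription factors. RefSeq start sites on GRCm38.p6 were given for 7 of the 8 genes, 14 starts in all, and the 250 bases before each start were searched on both strands. The full element (AGAACA, then any 3 bases, then TGTTCT) was in 1 window, that before start 5 of Sgk1 in RefSeq's table (chr10:21993640-21993889, plus strand), and in 0.00913% of 32851 RefSeq windows of that length, which belong to Acnat2, Gm35041 and Sgk1. Capitals in the windows mark matches. In Sgk1 the element is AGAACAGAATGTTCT, 175 to 189 bases before the start, and holds the hexamer AGAACA on each strand. A further hexamer (as TGTTCT) and the E-box CACGTG overlap each other near the far end of that window. The hexamer AGAACA alone was in 5 windows of 3 genes and in 16.1% of all windows. Those shown hold it before the listed start of Cxcr4 (chr1:128592300-128592549, minus strand) and before start 2 of Tsc22d3 (chrX:140600523-140600772, minus strand, where it reads TGTTCT). The E-box was in the window of Fkbp5 (chr17:28486150-28486399, minus strand), in that of Sgk1, and in 6.02% of all windows. A match is a description of the letters and not of binding, and windows without one, such as those of Klf9, Txnip and Ddit4, lack only these letters.
Sgk1 start 5: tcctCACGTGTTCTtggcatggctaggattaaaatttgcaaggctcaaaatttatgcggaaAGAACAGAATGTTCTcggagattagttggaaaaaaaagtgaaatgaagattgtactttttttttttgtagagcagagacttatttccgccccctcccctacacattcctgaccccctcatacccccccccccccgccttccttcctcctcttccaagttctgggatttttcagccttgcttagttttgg
Cxcr4: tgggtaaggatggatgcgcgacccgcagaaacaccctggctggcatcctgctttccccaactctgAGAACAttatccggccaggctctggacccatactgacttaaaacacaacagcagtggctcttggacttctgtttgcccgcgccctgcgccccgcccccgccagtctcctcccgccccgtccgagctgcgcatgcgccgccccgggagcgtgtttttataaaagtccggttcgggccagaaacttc
Tsc22d3 start 2: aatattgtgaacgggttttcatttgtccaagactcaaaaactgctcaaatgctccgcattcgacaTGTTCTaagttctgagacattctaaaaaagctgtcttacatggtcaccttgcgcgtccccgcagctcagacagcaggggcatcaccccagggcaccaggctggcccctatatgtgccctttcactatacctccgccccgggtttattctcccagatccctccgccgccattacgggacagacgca
Fkbp5: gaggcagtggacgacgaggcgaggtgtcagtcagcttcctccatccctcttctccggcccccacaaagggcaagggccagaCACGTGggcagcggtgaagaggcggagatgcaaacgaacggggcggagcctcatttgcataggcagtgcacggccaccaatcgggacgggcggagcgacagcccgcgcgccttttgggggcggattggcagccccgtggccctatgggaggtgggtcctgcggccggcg

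Values are log2 signals, and levels of different genes cannot be compared through different probe sets. Array medians lay between 4.05 and 4.22, arrays correlated between 0.958 and 0.995 across probe sets, and 2 arrays had a wide spread of relative expression (replicate 4 of the low-dose recovery group and replicate 13 of the high-dose exposure group). Blood-cell transcripts were well above the filter's floor on every array, with lowest values of 13.6 for the red cell gene Alas2, 12.5 for the platelet gene Pf4, 12.1 for the neutrophil gene S100a8, 10.1 for the T cell gene Cd3e and 7.47 for the B cell gene Cd79a. The median difference over all tested genes lay between -0.03 and 0.02 in the 12 comparisons. Among the 8 genes, Ddit4 and Cxcr4 varied most within groups, with a pooled SD of 0.37 each, at the 98.0 and 98.1 percentile of all tested genes. Zbtb16 varied least (SD 0.17, percentile 30.5) and lay close to the filter's floor of 4.14, above it in 71 of 72 arrays.

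At the end of exposure, Cxcr4 and Tsc22d3 were higher in low-dose than in control blood, by 1.69-fold and 1.42-fold, and the remaining 6 genes did not pass the test. The same pair was nearest to passing at the high dose, where none of the 8 passed. Fkbp5 was 1.17-fold higher under 50 than under 5 µg/mL.

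Cxcr4 encodes the receptor for the chemokine Cxcl12, which holds leukocytes in the bone marrow and draws them back to it (gene ID 12767, chr1:128588199-128592299 on GRCm38.p6). Its lowest, median and highest log2 signals were 7.81, 8.48 and 8.77 in control arrays, 8.28, 9.20 and 9.90 in low-dose arrays, and 8.20, 9.03 and 9.70 in high-dose arrays. Both dosed groups overlapped the controls at their low end, but 12 of 15 arrays in each lay above every control. The difference was 0.75 ± 0.16 at the low dose (SE, limma, adjusted p = 0.00438) and 0.62 ± 0.16 at the high dose, where it did not pass (adjusted p = 0.122). High and low dose differed by -0.14 ± 0.13 (adjusted p = 0.448). In whole blood, more cells of a type and more RNA per cell cannot be told apart.

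Tsc22d3 encodes GILZ, a leucine zipper protein that carries many of the anti-inflammatory effects of glucocorticoids in lymphocytes and myeloid cells (gene ID 14605, chrX:140539528-140600522). Its lowest, median and highest signals were 9.63, 10.11 and 10.40 in control arrays, 10.26, 10.53 and 11.14 in low-dose arrays, and 9.90, 10.44 and 10.74 in high-dose arrays. The low-dose arrays all lay above the control median, and 10 of 15 exceeded every control, against 9 of 15 at the high dose. The difference from control was 0.51 ± 0.11 at the low dose (limma, adjusted p = 0.00438) and 0.36 ± 0.11 at the high dose (adjusted p = 0.247). A second, dimmer probe set of Tsc22d3 (mean 8.71) gave 0.48 ± 0.13 at the low dose, with an adjusted p of 0.0404 over 21044 probe sets, and 0.43 ± 0.13 at the high dose (adjusted p = 0.225). Another (mean 5.53) gave smaller differences that did not pass, 0.24 ± 0.07 at the low and 0.20 ± 0.07 at the high dose (adjusted p = 0.0782 and 0.329).

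Ddit4 encodes REDD1, an inhibitor of the growth kinase complex mTORC1 that is induced by glucocorticoids, hypoxia and energy stress (gene ID 74747, chr10:59949675-59951770). Its signal was 4.72, 5.09 and 5.37 in control arrays (lowest, median and highest), 4.61, 5.57 and 5.96 in low-dose arrays and 5.04, 5.48 and 5.94 in high-dose arrays. Most dosed arrays lay above the control range, 10 of 15 low-dose and 9 of 15 high-dose arrays, and the groups overlapped. The differences of 0.38 ± 0.16 at the low dose and 0.44 ± 0.16 at the high dose did not pass (adjusted p = 0.268 and 0.354), although with array weights the low-dose one did (0.47, adjusted p = 0.0342).

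Fkbp5 encodes a co-chaperone that lowers the receptor's affinity for the hormone and so closes a negative feedback loop (gene ID 14229, chr17:28398753-28486149). Signals were 6.86, 7.08 and 7.26 in control arrays, 6.37, 6.98 and 7.25 in low-dose arrays and 6.83, 7.10 and 7.80 in high-dose arrays. The medians lay close together, and 4 high-dose arrays lay above every low-dose array. The high dose exceeded the low dose by 0.23 ± 0.08 (limma, adjusted p = 0.0429), while neither dose differed from control past the threshold (-0.09 ± 0.11 for 5 µg/mL, 0.14 ± 0.11 for 50 µg/mL). The call was lost when any 1 of 12 of the 30 arrays was left out, where the adjusted p reached 0.0849, and a dimmer Fkbp5 probe set (mean 4.42) gave 0.04 ± 0.07. Between the same groups 12 of 13 B cell and 11 of 13 monocyte markers were lower at the high dose, and 12 of 15 platelet and 4 of 14 erythroid markers were higher. Of all genes 12.6% were lower and 6.04% higher. With the marker means as covariates Fkbp5 differed by 0.23, with an adjusted p of 0.548. That fit called 18 of all tested genes, against 2349 without the covariates.

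The other 4 genes did not differ past the threshold in any dose comparison at the end of exposure. Sgk1, a kinase that acts on ion channels and Foxo factors, differed from control by 0.08 ± 0.11 at the low dose and -0.09 ± 0.11 at the high dose. Txnip (gene ID 56338, chr3:96557957-96561857), an inhibitor of thioredoxin and of glucose uptake, differed by 0.15 ± 0.11 and 0.02 ± 0.11. Klf9 (gene ID 16601, chr19:23141226-23168129), a zinc finger repressor induced by glucocorticoids and thyroid hormone, differed by -0.04 ± 0.09 and 0.11 ± 0.09. Zbtb16 (gene ID 235320, chr9:48651797-48836225), which encodes the transcription factor PLZF of innate-like T cells, differed by 0.05 ± 0.08 and 0.07 ± 0.08. All 4 control ranges were overlapped by both dosed groups.

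**Figure D1:**
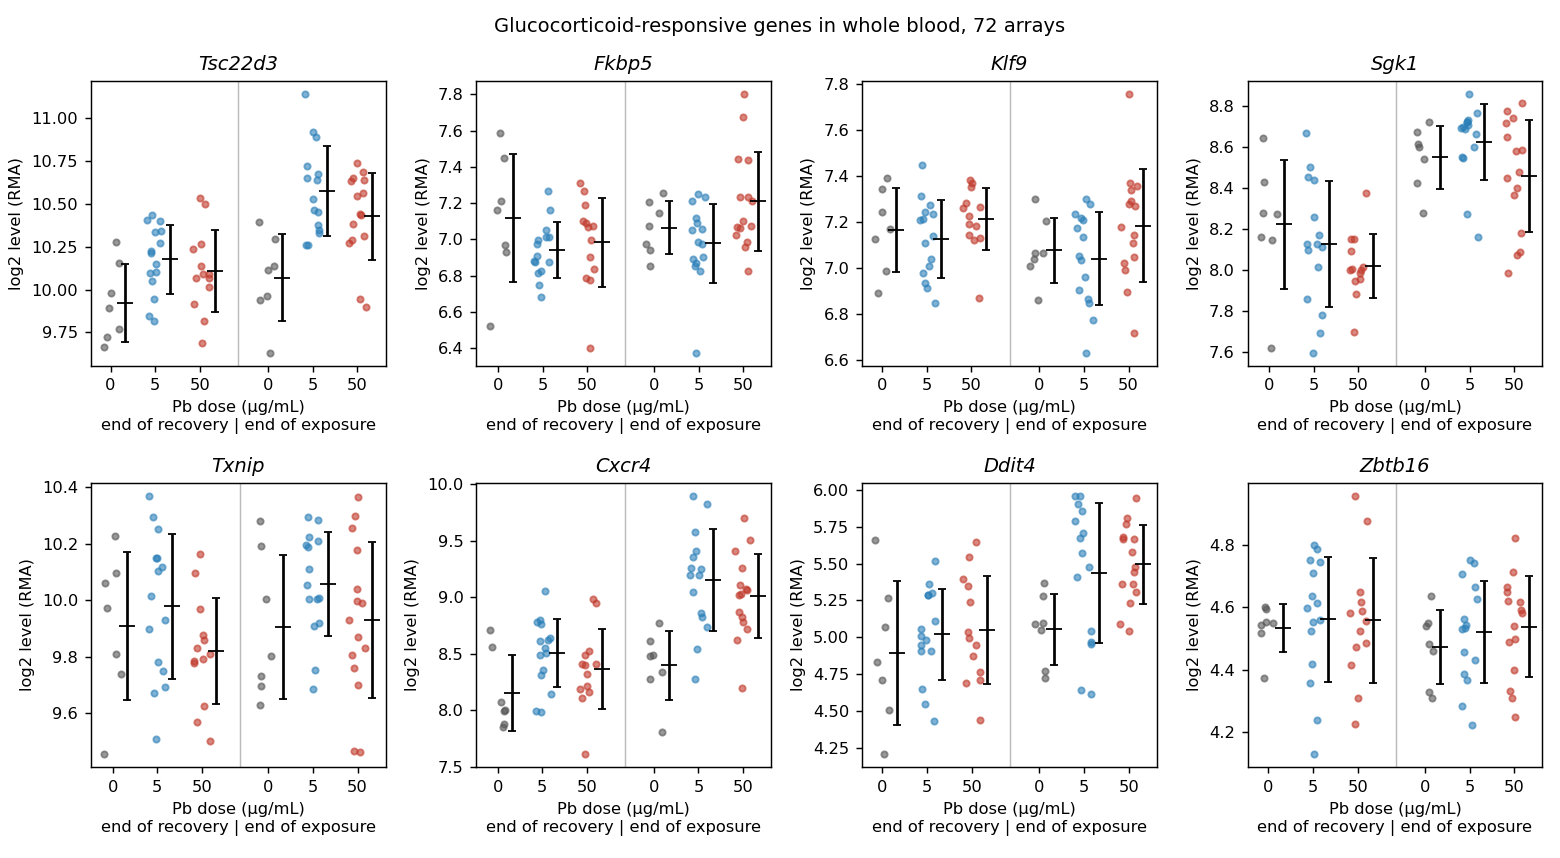
Log2 signal of the 8 genes in each of 72 arrays (vertical axes, which do not start at 0), by Pb dose in µg/mL at the end of recovery (left) and of exposure (right). Points are arrays, and the bar gives mean ± SD. In Cxcr4, Tsc22d3 and Ddit4 most dosed arrays at the end of exposure lay above the controls (12, 10 and 10 of 15 at the low dose).

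Counted together, 2 of the 8 genes were higher at the low dose than in controls after exposure, where 1.3% of all tested genes passed, 1.11% higher and 0.191% lower. Their median difference was 0.11, against 0.00 over all genes. At the high dose 0 of the 8 passed in limma, 3 had an unadjusted p under 0.05, and 0.0238% of all genes passed, so few genes of any kind did. The median of the 8 was 0.13, against -0.02 over all genes. Between the doses 1 gene was higher at the high dose, where 18.7% of all genes passed, 6.04% higher and 12.6% lower. The comparisons of the low and the high dose share their 7 controls. The 8 genes were chosen with earlier results of these data known, so these counts describe them and do not test the set.

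The number called at the high dose depended on scaling. Cxcr4 and Tsc22d3 passed after quantile normalization (0.62, adjusted p = 0.0255, and 0.37, adjusted p = 0.0489) and after cyclic loess (0.66, adjusted p = 0.0165, and 0.41, adjusted p = 0.0233).

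Cell markers moved with the low-dose differences. At the low dose 6 of 13 monocyte and 4 of 13 B cell markers were higher than in controls, while 1 of 14 T cell and 1 of 15 platelet markers were lower. At the high dose no marker of the 8 lists passed, where 0.0238% of all genes did. The mean monocyte level per array, relative to each gene's mean over all arrays, ran over -0.67 to -0.00 in controls, -0.19 to 0.34 at the low dose and -0.53 to -0.02 at the high dose, and the mean B cell level over -1.50 to 0.42, -0.49 to 0.45 and -1.09 to -0.08. T cell means overlapped among all 3 groups. With the means of 8 marker lists as covariates the low-dose difference was 0.72 for Cxcr4 (adjusted p = 0.214) and 0.54 for Tsc22d3 (adjusted p = 0.136), so neither passed, and 0.75 for Ddit4 (adjusted p = 0.203), against 0.38 without the covariates. At the high dose the same fit gave 0.75 for Cxcr4 (adjusted p = 0.0069), 0.47 for Tsc22d3 (adjusted p = 0.00941) and 0.59 for Ddit4 (adjusted p = 0.0294), and all 3 passed. Over all tested genes that fit called 1 at the low dose, against 164 without the covariates. At the high dose it called 195, against 3 without them.

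Genes that shape the hormone's action were compared next. The receptor, its chaperones and co-activators and the enzyme Hsd11b1, which reactivates corticosterone, were a list of 13 genes, of which 9 were tested. At the low dose 0 rose and 1 fell, the Hsp70 and Hsp90 adaptor Stip1 (-0.50 ± 0.10, limma, adjusted p = 0.00205). Of all genes 1.11% rose and 0.191% fell there. The receptor gene Nr3c1 averaged 7.02 in control, 7.01 in low-dose and 6.80 in high-dose arrays, and differed by -0.02 ± 0.09 at the low and -0.22 ± 0.09 at the high dose from control (adjusted p = 0.976 and 0.436). Against the low dose, the high dose had 5 of these 9 higher and 1 lower, where 6.04% of all genes were higher and 12.6% lower. The lower one was Nr3c1 (-0.20 ± 0.07, adjusted p = 0.0441). Stip1 was higher by 0.56 ± 0.08 (adjusted p = 5.53e-07), the hormone-binding chaperone Hsp90aa1 by 0.38 ± 0.06 (adjusted p = 5.73e-06), the co-activator Ncoa1 by 0.23 ± 0.06 (adjusted p = 0.00356) and the constitutive Hsp70 gene Hspa8 by 0.25 ± 0.06 (adjusted p = 0.00395).

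Of 26 tested genes from a list of 30 other induced targets, 2 rose at the low dose and 0 fell. Among all genes 1.11% were higher and 0.191% lower there. The 2 induced targets were Dusp1, a phosphatase of stress kinases (1.01 ± 0.16, adjusted p = 3.48e-05), and Cebpb, a myeloid transcription factor (0.47 ± 0.11, adjusted p = 0.0163). Dusp1 is also an immediate early gene, and of 15 tested immediate early genes it and Fos rose (Fos 1.28 ± 0.18, adjusted p = 7.35e-06), none fell, and the list median was 0.13. Of 8 tested repressed targets and 14 tested clock genes, 0 passed at either dose against control. The clock and glucocorticoid target Per1 was at 0.24 ± 0.08 at the low and 0.31 ± 0.08 at the high dose (adjusted p = 0.132 and 0.103). At the high dose 0 of these lists held a gene that passed, where 0.0238% of all genes did, and Fos and Dusp1 were at 0.80 ± 0.18 and 0.61 ± 0.16 (adjusted p = 0.0552 and 0.0955). High against low dose, 7 of 15 immediate early genes were lower and 0 higher, and 6 of 26 induced targets were lower and 1 higher (Il1r2, a decoy receptor for interleukin 1 that is also on the neutrophil marker list, 0.53 ± 0.12, adjusted p = 0.00143), where 12.6% of all genes were lower and 6.04% higher. The lower ones included Fos (-0.48 ± 0.14, adjusted p = 0.0139), Dusp1 (-0.39 ± 0.12, adjusted p = 0.0195) and Nfkbia, the inhibitor of NF-kappaB (-0.34 ± 0.08, adjusted p = 0.00215).

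**Figure D2:**
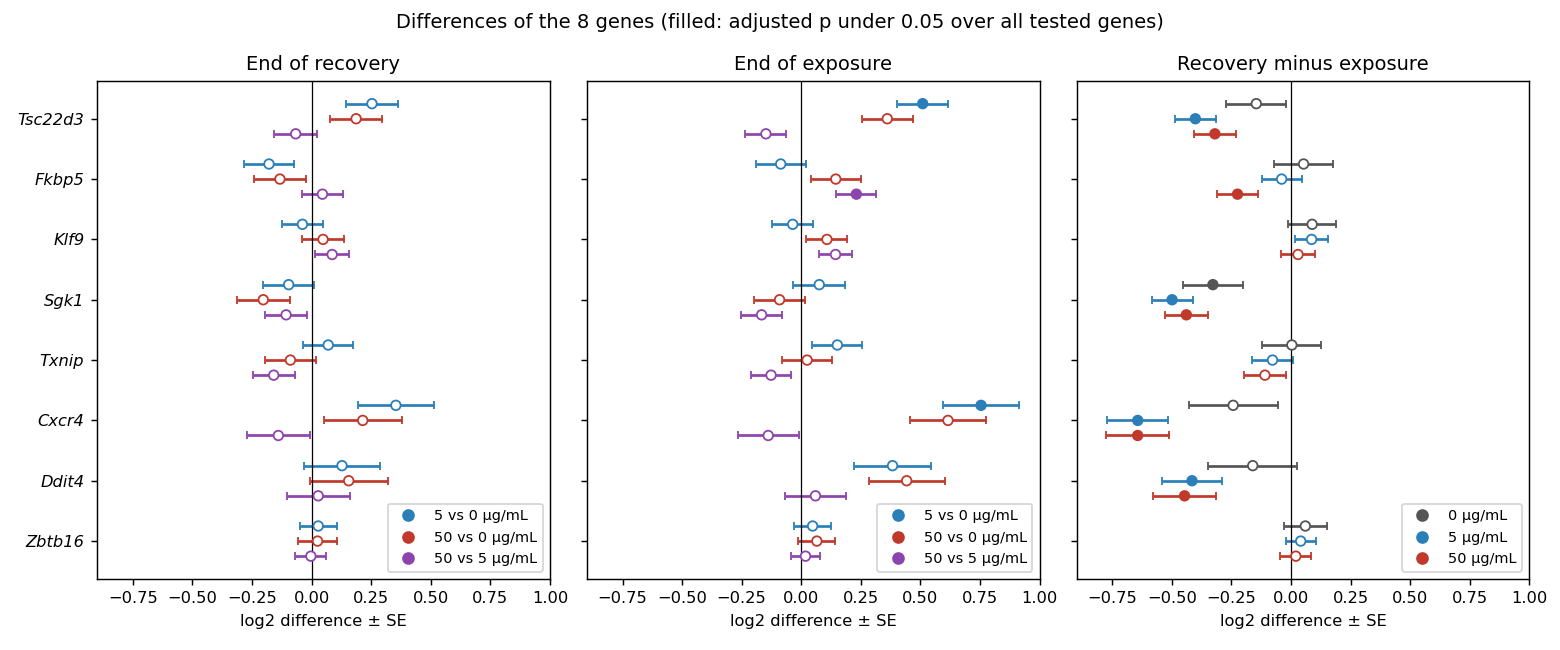
Log2 differences ± SE of the 8 genes between doses at the end of recovery (left) and of exposure (middle), and between recovery and exposure within each dose (right). Filled points passed an adjusted p of 0.05 over all tested genes. At the end of recovery none of the 24 points is filled.

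At the end of recovery no dose comparison passed for any of the 8 genes. Against control, 0 of 8 passed at the high dose, where 0.429% of all genes passed, 0.405% higher and 0.0238% lower, and 0 of 8 at the low dose, where 0 of 12588 genes passed and 295 had an unadjusted p under 0.05. Between the doses again 0 of 12588 genes passed, with 1765 at an unadjusted p under 0.05.

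The values of Cxcr4 and Tsc22d3 are given first. Cxcr4 read 7.85, 8.0 and 8.71 in control arrays (lowest, median and highest), 7.98, 8.55 and 9.05 in low-dose arrays and 7.61, 8.40 and 8.98 in high-dose arrays, and the 3 ranges overlapped along most of their length. The difference was 0.35 ± 0.16 at the low and 0.21 ± 0.16 at the high dose (limma, adjusted p = 1 and 0.619). Tsc22d3 read 9.66, 9.89 and 10.28 in control arrays, 9.82, 10.21 and 10.44 in low-dose arrays and 9.69, 10.09 and 10.53 in high-dose arrays. Its low-dose median lay near the top of the control range, with 5 of 15 arrays above every control. The differences were 0.25 ± 0.11 and 0.19 ± 0.11 (adjusted p = 1 and 0.531). The other 6 genes lay between -0.20 (Sgk1 at the high dose) and 0.16 (Ddit4 at the high dose).

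From exposure to recovery, 4 genes were lower in both dosed groups: Sgk1, Cxcr4, Tsc22d3 and Ddit4. Fkbp5 was lower in the high-dose group and Sgk1 in controls as well. In controls 1 of 8 was lower at recovery, where 36.1% of all genes passed, 13.6% lower and 22.5% higher. In the low-dose group 4 of 8 were lower, where 44.1% of all genes passed, 17.9% lower and 26.2% higher. In the high-dose group 5 of 8 were lower, where 49.2% of all genes passed, 19.8% lower and 29.3% higher. No gene of the 8 was higher at recovery past the threshold. The medians of the 8 were -0.07, -0.24 and -0.27 in control, low-dose and high-dose blood, and those of all genes -0.01, -0.00 and -0.00.

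Sgk1 fell in all 3 dose groups (gene ID 20393, chr10:21882184-21999903). Its lowest, median and highest signals in controls were 7.62, 8.27 and 8.65 at recovery, against 8.28, 8.60 and 8.72 at exposure. In low-dose arrays they were 7.60, 8.13 and 8.67 at recovery, against 8.16, 8.70 and 8.86 at exposure. In high-dose arrays they were 7.70, 8.0 and 8.38 at recovery, against 7.99, 8.48 and 8.81 at exposure. The recovery arrays reached lower than any exposure array in 4 of 7 control, 9 of 15 low-dose and 5 of 13 high-dose cases, and the ranges overlapped. The differences were -0.33 ± 0.13 in controls, -0.50 ± 0.09 at the low dose and -0.44 ± 0.09 at the high dose (limma, adjusted p = 0.035, 2.47e-06 and 3.59e-05). The control call was lost when any 1 of 7 of the 14 control arrays was left out (adjusted p up to 0.135).

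Cxcr4 was -0.64 ± 0.13 in both dosed groups (limma, adjusted p = 2.86e-05 at the low and 4.21e-05 at the high dose) and -0.24 ± 0.19 in controls (adjusted p = 0.305). Tsc22d3 was -0.40 ± 0.09 at the low dose (adjusted p = 8.78e-05), -0.32 ± 0.09 at the high dose (adjusted p = 0.00207) and -0.15 ± 0.13 in controls (adjusted p = 0.361). Their values at both collections are given above. By these probe sets the recovery medians of the dosed groups lay near the exposure medians of the controls. The controls of the same collection had lower medians, 8.0 for Cxcr4 and 9.89 for Tsc22d3. A dimmer Tsc22d3 probe set fell by more, and another did not pass in any group, as given below.

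Ddit4 read 4.21, 4.84 and 5.66 in control arrays at recovery (lowest, median and highest), 4.43, 5.01 and 5.52 at the low dose and 4.44, 4.99 and 5.65 at the high dose. These ranges nearly coincided. Against exposure, Ddit4 was lower, at -0.42 ± 0.13 at the low dose (limma, adjusted p = 0.00579) and -0.45 ± 0.13 at the high dose (adjusted p = 0.00383), and at -0.16 ± 0.19 in controls (adjusted p = 0.508). In high-dose blood, 8 of 13 recovery arrays lay below every exposure array. Fkbp5 was lower at the high dose (-0.22 ± 0.09, adjusted p = 0.0271), with a recovery range of 6.40 to 7.31 against 6.83 to 7.80 at exposure. That call was lost without high-dose exposure replicate 3 or 11 or high-dose recovery replicate 4 (adjusted p up to 0.0753). Fkbp5 was at -0.04 ± 0.08 at the low dose and 0.05 ± 0.12 in controls. Txnip, Klf9 and Zbtb16 lay between -0.11 and 0.09 in all 3 groups by their brightest probe sets, and none passed.

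Whether the fall differed between dosed and control mice was tested as an interaction, the dose difference at recovery minus that at exposure. For both doses all 8 estimates were negative, from -0.40 to -0.04 at the high and from -0.40 to -0.00 at the low dose. Cxcr4 had the most negative, -0.40 ± 0.23 at each dose. None of the 8 passed (limma, adjusted p from 0.697 to 1), so a larger fall in dosed blood was not shown. Of all genes 0.00794% passed at the high dose, all lower, and 0.0238% at the low dose, 0.00794% lower and 0.0159% higher. Both interactions use the same controls. Between high and low dose 0 of 8 passed, against 0.0636% of all genes lower, with Fkbp5 at -0.19 ± 0.12 (adjusted p = 0.993).

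The cell markers and array measures shifted over the same interval. B cell markers were higher at recovery in 13 of 13 in controls, 12 of 13 at the low dose and 13 of 13 at the high dose, and monocyte markers in 11, 6 and 10 of 13 (1 was lower at the low dose). Platelet markers were higher in 2, 6 and 4 of 15 and lower in 8, 1 and 2. Erythroid markers were lower in 10, 11 and 11 of 14. Of all genes 22.5%, 26.2% and 29.3% were higher and 13.6%, 17.9% and 19.8% lower. Mean B cell levels per array ran over 0.33 to 0.97 in control, 0.12 to 0.84 in low-dose and 0.01 to 0.65 in high-dose arrays at recovery, against the exposure ranges given above. T cell means ran over -0.47 to 0.46 across the recovery arrays and -0.39 to 0.38 across the exposure arrays. The mean signal of the 18S ribosomal RNA control probe sets was 6.38 ± 0.61 (SD, n = 7), 6.33 ± 0.31 (n = 15) and 6.43 ± 0.50 (n = 13) at recovery in control, low-dose and high-dose arrays, against 7.00 ± 0.73 (n = 7), 7.00 ± 0.86 (n = 15) and 7.79 ± 0.99 (n = 15) at exposure. With that mean as a covariate, 1, 4 and 5 of the 8 genes were lower at recovery in control, low-dose and high-dose blood, the counts found without it. With the marker means as covariates, Sgk1, Cxcr4 and Tsc22d3 still passed in both dosed groups (low dose -0.53, -0.70 and -0.51, high dose -0.60, -0.90 and -0.52), Ddit4 passed in neither (-0.31, adjusted p = 0.131, for 5 µg/mL and -0.24, adjusted p = 0.44, for 50 µg/mL), and Txnip passed in both (-0.21 and -0.36, adjusted p = 0.0186 and 0.00384). Sgk1 in controls was at -0.45 (adjusted p = 0.0541) and Fkbp5 at the high dose at -0.26 (adjusted p = 0.171), so neither passed, with differences no smaller than without the covariates (-0.33 and -0.22). Over all tested genes that fit called 1234, 3861 and 2506 in control, low-dose and high-dose blood, against 4543, 5551 and 6189 without the covariates.

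Of 26 other induced targets, 5 were higher and 2 lower at recovery in controls, 2 and 7 at the low dose, and 5 and 8 at the high dose. Among all genes 22.5%, 26.2% and 29.3% were higher and 13.6%, 17.9% and 19.8% lower in these 3 comparisons, so many genes of any kind passed, and the list counts that follow are to be read against these shares. Dusp1 was lower in all 3 (-0.50 ± 0.18, -1.26 ± 0.12 and -0.94 ± 0.13 in control, low-dose and high-dose blood), as was the mRNA decay factor Zfp36l2 (-0.50 ± 0.15, -0.88 ± 0.10 and -0.61 ± 0.11). Foxo1, a transcription factor of fasting and lymphocyte homeostasis, was higher in all 3 (0.51 ± 0.11, 0.48 ± 0.08 and 0.62 ± 0.08), as was the insulin receptor substrate Irs2 (0.61 ± 0.13, 0.38 ± 0.09 and 0.41 ± 0.09). Nr3c1 was lower at the low and high dose (-0.25 ± 0.07, adjusted p = 0.00438, and -0.29 ± 0.08, adjusted p = 0.00114) and at -0.25 ± 0.11 in controls (adjusted p = 0.0584). Hsp90aa1 was lower in control and high-dose blood (-0.29 ± 0.09 and -0.56 ± 0.06). Stip1 averaged 6.66 at exposure and 6.22 at recovery in controls. Its difference was 0.03 ± 0.08 at the low dose, which did not pass, and -0.62 ± 0.08 at the high dose. The interaction between high and low dose was -0.64 ± 0.11 for Stip1 (limma, adjusted p = 0.000734). Hsp90aa1 was at -0.10 ± 0.06 at the low dose, which did not pass, and its interaction between high and low dose was -0.46 ± 0.09 (adjusted p = 0.00277).

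Immediate early genes were lower in 3 of 15 in controls, 8 at the low and 6 at the high dose, with 2 higher in controls. Fos was lower in all 3, at -0.66 ± 0.21, -1.75 ± 0.14 and -1.26 ± 0.15 in control, low-dose and high-dose blood (limma, adjusted p = 0.0104 in controls). Of 8 repressed targets, 2 were higher and 2 lower in controls, 2 and 1 at the low dose, and 2 and 2 at the high dose. Among these, the adhesion receptor gene Icam1 was higher in all 3 (0.65 ± 0.10, 0.36 ± 0.07 and 0.38 ± 0.07) and the cytokine gene Il1b lower in both dosed groups (-0.52 ± 0.13 and -0.58 ± 0.13). Clock genes had 4 higher and 0 lower of 14 in controls, 2 and 3 at the low dose, and 2 and 2 at the high dose, counts near the shares of all genes given above. Among them Per1 was higher in controls (0.40 ± 0.09, adjusted p = 0.000493), and the repressor gene Nr1d2 was lower in both dosed groups (-0.54 ± 0.10 and -0.43 ± 0.10).

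**Figure D3:**
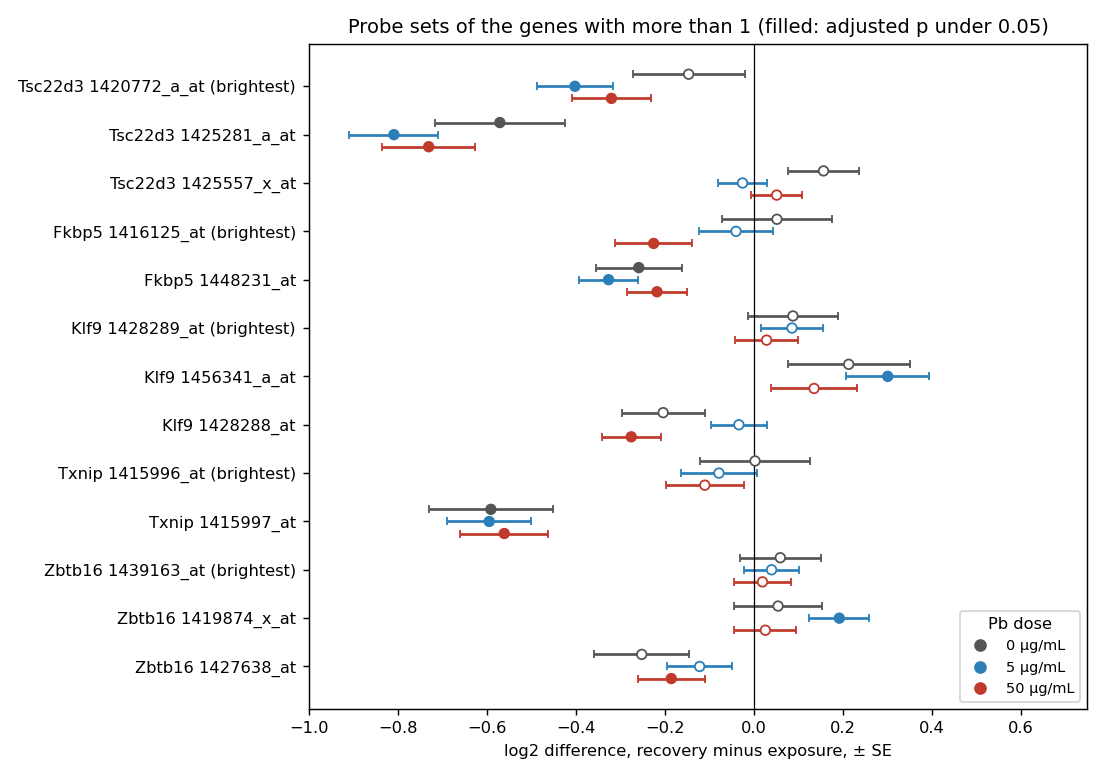
Recovery minus exposure in log2 (± SE) for the 13 probe sets that passed the filter, of the 5 genes with more than 1, by Pb dose. Filled points had an adjusted p under 0.05 over 21044 probe sets. The dimmer Txnip probe set lies between -0.59 and -0.56 in all 3 groups while the brightest lies between -0.11 and 0.00.

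Probe sets of 1 gene did not always agree over this interval, which bears on every level set between the collections. The Tsc22d3 probe set of mean 8.71 fell by more than the brightest and in all 3 groups (-0.57 ± 0.15, -0.81 ± 0.10 and -0.73 ± 0.10 in control, low-dose and high-dose blood, adjusted p = 0.00146, 8.92e-10 and 2.24e-08). Another (mean 5.53) did not pass in any, at 0.16 ± 0.08, -0.02 ± 0.05 and 0.05 ± 0.06 in the same order. The dimmer Txnip probe set (mean 6.05) fell in all 3 (-0.59 ± 0.14, -0.59 ± 0.09 and -0.56 ± 0.10), where the brightest Txnip probe set (mean 9.94) passed in none. The dimmer Fkbp5 probe set fell in all 3 (-0.26 ± 0.10, -0.33 ± 0.07 and -0.22 ± 0.07). For Klf9, the probe set of mean 6.82 was higher at the low dose (0.30 ± 0.09) and that of mean 5.22 lower at the high dose (-0.28 ± 0.07). Zbtb16 likewise had 1 probe set higher at the low dose (mean 4.40, 0.19 ± 0.07) and 1 lower at the high dose (mean 4.10, -0.19 ± 0.08). In the dose comparisons at the end of exposure, a probe set other than the brightest passed only for Tsc22d3 at the low dose. Cxcr4, Sgk1 and Ddit4 have a single probe set each and could not be checked this way.

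Within groups, several of the 8 genes varied together from array to array. With group means removed, 27 of 28 pairs had a positive Pearson r over 72 arrays, with a median of 0.24, and 13 pairs passed a permutation test of 100000 resamples, all positive. The share of pairs among all tested genes that would do so was not counted, so these counts have no baseline. The closest pair was Tsc22d3 and Cxcr4, with r = 0.89 and Spearman rho = 0.89 (permutation p = 1e-05, the smallest these resamples can give, adjusted over 28 pairs to 3.5e-05). It held within each collection (r = 0.89 over 37 exposure and 0.90 over 35 recovery arrays) and without the 2 arrays farthest from the median (r = 0.89). Ddit4 joined this pair, with r = 0.74 to Cxcr4 and 0.72 to Tsc22d3 (rho = 0.74 and 0.72, without the farthest arrays 0.75 and 0.71), and these held in each collection (0.72 and 0.67 over exposure, 0.78 each over recovery arrays). Txnip correlated with Tsc22d3 and with Sgk1 at r = 0.74 each (rho = 0.73 and 0.67, without the farthest arrays 0.72 and 0.69, at exposure 0.78 and 0.72, at recovery 0.70 and 0.76). Sgk1 and Ddit4 were at r = 0.24 (rho = 0.18, adjusted p = 0.0897).

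Fkbp5 stood closest to Txnip (r = 0.50, rho = 0.46, adjusted p = 9.33e-05) and Sgk1 (r = 0.47, rho = 0.40, adjusted p = 0.000252), with 0.44 and 0.38 without the farthest arrays, 0.50 and 0.56 at exposure and 0.50 and 0.39 at recovery, and had r = 0.18 to Cxcr4 (adjusted p = 0.195). Klf9 and Zbtb16 passed with none of the other genes by Pearson r, the highest being 0.24 for Klf9 with Txnip and 0.21 for Zbtb16 with Fkbp5. By Spearman rho 3 further pairs had an adjusted p under 0.05, Klf9 with Txnip (0.30) and Ddit4 (0.28) and Zbtb16 with Fkbp5 (0.26). All points share their array's cell mix and RNA.

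**Figure D4:**
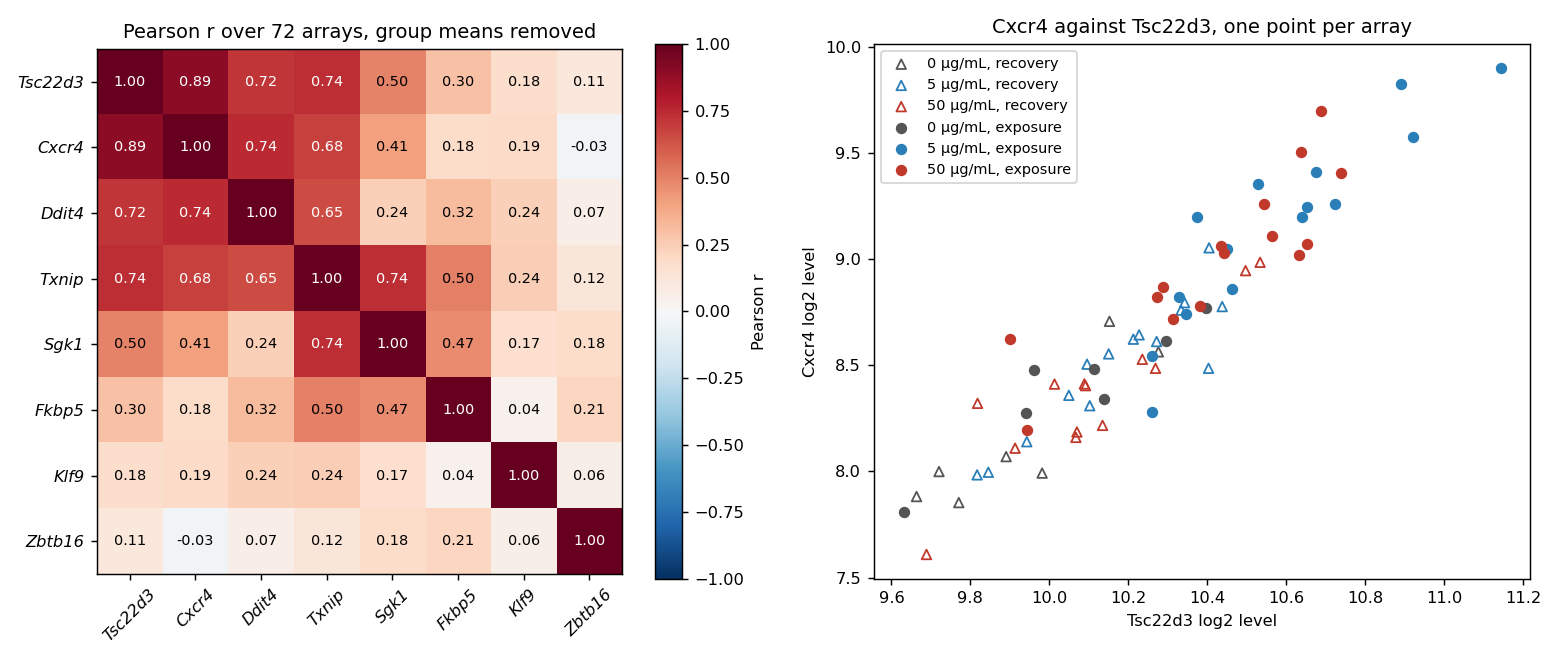
Left, Pearson r between the 8 genes over 72 arrays after removing group means. Right, Cxcr4 against Tsc22d3 log2 signal, with 1 point per array coloured by Pb dose and shaped by collection. Tsc22d3, Cxcr4, Ddit4 and Txnip form the block of high r (0.65 to 0.89), and Klf9 and Zbtb16 lie between -0.03 and 0.24.

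The mean level of T cell markers correlated with 6 of the 8 genes within groups. Of 64 relations between the 8 genes and 8 marker lists, 19 passed a permutation test adjusted over the 64, 18 of them positive. How many of all tested genes correlate with these lists was not counted. Txnip was closest to T cells (r = 0.78, rho = 0.76, adjusted p = 0.00016, and 0.76 without the 2 farthest arrays, with 0.78 over exposure and 0.80 over recovery arrays). Sgk1 was at r = 0.62 (rho = 0.60, adjusted p = 0.00016, and 0.58 without the farthest). Fkbp5, Ddit4, Tsc22d3 and Cxcr4 were at r = 0.50, 0.50, 0.48 and 0.39 (rho = 0.42, 0.49, 0.45 and 0.42, adjusted p = 0.00032, 0.000256, 0.00016 and 0.00465), with 0.44, 0.50, 0.48 and 0.36 without the farthest. Over the 6 genes r ran over 0.36 to 0.78 at exposure and 0.43 to 0.80 at recovery. With B cell markers Txnip reached r = 0.51 (rho = 0.51, adjusted p = 0.00016), while Tsc22d3, Sgk1 and Cxcr4 had 0.46, 0.52 and 0.42 over exposure arrays but 0.07, -0.05 and 0.19 over recovery arrays. Monocyte markers passed with Txnip and Sgk1 (r = 0.48 and 0.46, rho = 0.44 and 0.46). NK and cytotoxic markers passed with Txnip, Sgk1 and Ddit4 (r = 0.46, 0.34 and 0.33, rho = 0.43, 0.35 and 0.29). Neutrophil markers passed with Fkbp5 (r = 0.30, rho = 0.28, adjusted p = 0.0472). Klf9 passed with platelet markers only (r = 0.42, rho = 0.31, adjusted p = 0.00179), as did Zbtb16 (r = 0.34, rho = 0.27, adjusted p = 0.0302). The 1 negative relation was Txnip with erythroid markers (r = -0.40, rho = -0.40, adjusted p = 0.00709).

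**Figure D5:**
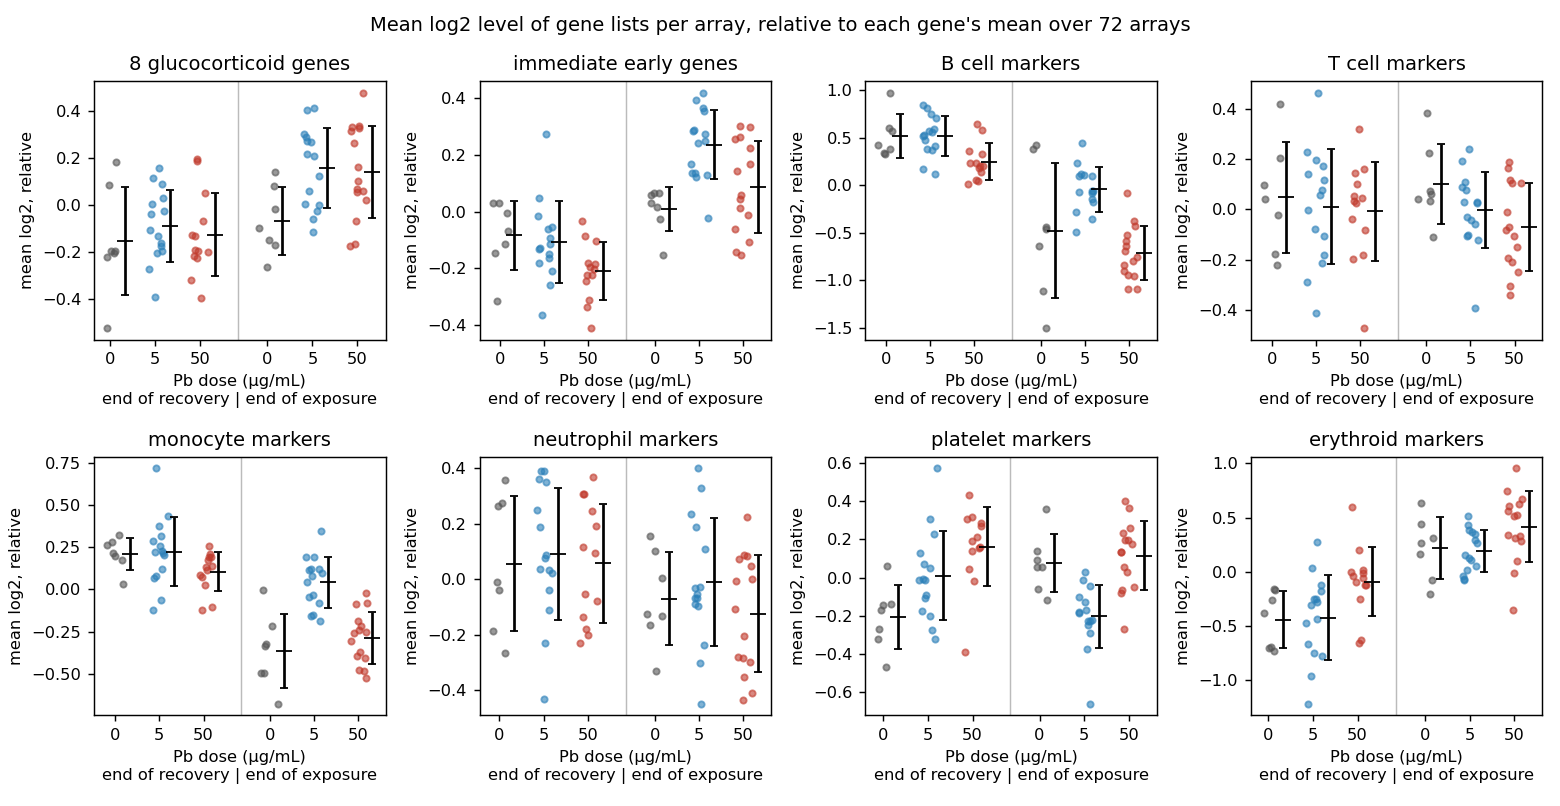
Mean log2 level of each gene list per array, relative to each gene's mean over 72 arrays, by Pb dose at the end of recovery (left) and of exposure (right). Points are arrays, and the bar gives mean ± SD. B cell levels spread widely in the exposure controls (-1.50 to 0.42), and immediate early genes are highest at the low dose after exposure.

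Among all other tested genes, those nearest to each of the 8 by within-group r over 72 arrays were as follows. Tsc22d3 lay closest to Cd69, an early activation marker that retains lymphocytes in tissue (r = 0.76), and to Tnfaip3, the NF-kappaB inhibitor A20 (0.69), and Cxcr4 to the same genes in the other order (Tnfaip3 0.74, Cd69 0.71). Sgk1 lay closest to N4bp2l1 (0.91) and Ripor2 (0.87). Txnip lay closest to Nfkbia (0.86) and the stress-induced sestrin gene Sesn1 (0.85). Ddit4 lay closest to the phosphatase gene Dusp10 (0.64) and Calu (0.60), Fkbp5 to the phosphatase gene Ptpn22 (0.64) and Mlxip (0.62), and Klf9 to Prkar2a, a regulatory subunit of protein kinase A (0.72), and Pdik1l (0.67). Zbtb16 had no close partner, its nearest being Cuedc1 (0.43) and Igf1r (0.42).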

How the data were processed

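Whole-blood RNA of 72 samples was measured on arrays. The deposited values are log2 signals that the authors normalized by RMA, per the submitters' processing notes, while the sources used here do not give its software, version or background step. The lowest value was 0.41 and the highest 14.1, so the exact variant is unknown. Arrays give no read depth, and precision is limited by their number.

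Groups came from the sample titles. No further normalization was applied. Of 45101 probe sets, 34945 had 1 symbol in the platform annotation, 932 several and 9160 none, and 64 array controls were left out. Probe sets above 4.14, the median of all values, in at least 7 arrays were kept (21044), and the brightest represented each gene (12588 genes). Group means over all 72 arrays were fitted with limma 3.58.1 in R 4.3.3 (66 residual degrees of freedom, empirical Bayes), and p-values were adjusted by Benjamini-Hochberg over all tested genes in each of 12 comparisons. The 8 genes and the other lists were chosen with earlier results of these data known. All 8 genes are described, together with up to 4 members of each other list with the smallest p among those past the threshold, the receptor gene and Per1 (chosen after their values were seen), and the 2 nearest genes of each by within-group correlation. The fit was tested on simulated data. Promoters and loci are RefSeq, GRCm38.p6. Samples with the same dose and number did not consistently deviate together (r above 0.1 in 3 of 7 control, 7 of 15 low-dose and 4 of 13 high-dose pairs), so no pairing was used. That check cannot show whether the numbers follow the animals. Alternatives covered scaling, filter, probe sets, weights, moderation, arrays fitted, covariates, wide arrays, numbers as a block and leaving out each array.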

Additional observations from a re-analysis of the deposited data

Results flagged for a closer look

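Zbtb16 in replicate 3 of the control recovery group was 4.37, while the nearest of the other arrays of that group was 4.52 and the highest 4.60. The gap was 0.632 of the group's range, above Dixon's critical value of 0.568 for 7 samples. Of 16 such groups tested this was the 1 past its critical value, and chance gives about 1 in 20. It lies close to the filter's floor of 4.14, and no difference of Zbtb16 by its brightest probe set passed a test.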

How the results depend on the processing

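Of the results for the 8 genes, none changed sign where it had passed the threshold. At the end of exposure, high dose against control went to 2 called genes after quantile normalization, 2 after cyclic loess and 3 with cell marker covariates, from 0. Low dose against control went to 0 with cell marker covariates and to 3 with array weights, from 2. Ddit4 was the gene added (0.47, adjusted p = 0.0342), and its low-dose difference was 0.75 with cell marker covariates, where it did not pass (adjusted p = 0.203). High against low dose gave 2 after quantile normalization, cyclic loess or array weights (Klf9 added) and 0 after centring on array medians, with no filter, with cell marker covariates or with the hybridisation control covariate, from 1. Control recovery against exposure gave 0 after centring, with array weights or with cell marker covariates, from 1. The cause was not tested.

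Leaving out 1 array at a time gave 0 to 1 called genes in high against low dose after exposure and in control recovery against exposure, and 4 to 5 in high-dose recovery against exposure, where Fkbp5 was lost without high-dose exposure replicate 3 or 11 or recovery replicate 4. Low dose against control stayed at 2, with adjusted p up to 0.0478 (Cxcr4, difference 0.66) and 0.0487 (Tsc22d3, 0.44) without control replicate 6. With the replicate number as a block, high-dose and low-dose recovery against exposure gave 5 and 4 called genes and control 1, and low dose against control 2, the same counts as without it. The labels do not say whether the numbers follow the animals, so whether this block pairs the samples is not known.

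Counts over all genes moved more. Low dose against control after exposure called 164 genes, 35 without control replicate 5 to 329 without control replicate 3, and 1 (cell marker covariates) to 1406 (array weights) in other settings. High dose against control called 3, up to 26 without control replicate 6, and 2 to 195 in other settings. High against low dose called 2349, 1691 to 3062 without 1 array and 18 to 3139 in other settings. After recovery, high dose against control called 54, 2 without control replicate 3 to 170 without high-dose replicate 2, and 0 to 426 in other settings. Recovery against exposure called 4543, 5551 and 6189 genes in control, low-dose and high-dose blood, and as few as 1234, 3861 and 2506 with cell marker covariates.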
